A study of Mus musculus with 6 samples.

Results

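The 10 genes described here are mt-Nd1, mt-Nd2, mt-Nd4, mt-Nd5, mt-Nd6, mt-Cytb, mt-Co1, mt-Co2, mt-Co3 and mt-Atp6. All of them are read from the mitochondrial genome and encode subunits of the respiratory chain or of ATP synthase. They were selected by gene name, with their measured values in these libraries already known, from the 54532 genes of the deposited table. The mitochondrial genome has 37 genes in that table, of which 13 encode proteins. Because the genes were chosen on measured values, their levels and fold changes are given as a description, without a test.

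RNA-seq was performed on thioglycollate-elicited peritoneal macrophages of wild-type C57BL/6J mice, aged 6 to 8 weeks, in 3 groups of 2 libraries each. Control cells were untreated, and Model cells were given LPS, a bacterial ligand that primes the NLRP3 inflammasome (500 ng/mL, starting 5.5 h before ATP), and then 2 mM ATP, which activates it, during the last 0.5 h. In MUS, muscone, a macrocyclic ketone from musk, was added to this scheme at 50 μM, 0.5 h ahead of ATP. No group received muscone without LPS and ATP, and the labels do not say whether libraries came from separate animals or cultures, so p-values below measure only the spread between these libraries, which may be technical. The labels give each replicate number as its batch.

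Mitochondrial DNA is a small circle whose strands are called heavy and light, and each is transcribed as a long precursor that is cut into rRNAs, tRNAs and mRNAs. Most of the mRNAs receive short poly-A tails, which lets poly-T beads capture them together with nuclear mRNAs, but the light-strand mRNA of mt-Nd6 is the known exception, with little or no tail. Their products sit in the inner membrane, where complex I (NADH dehydrogenase), complex III (cytochrome bc1) and complex IV (cytochrome c oxidase) pump protons and complex V (ATP synthase) uses the proton gradient to make ATP. Each of these complexes also has many subunits encoded in the nucleus. In macrophages, LPS is known to shift metabolism from oxidative phosphorylation towards glycolysis.

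Stretches of the mitochondrial genome have also been copied into nuclear chromosomes, and reads from a copied stretch can be placed in either location. Of the 50-base stretches of mt-Co2, 100% also occurred in an annotated nuclear transcript, as did 99.9% of those of mt-Co3 and 99.5% of those of mt-Atp6. The share was 62.2% for mt-Nd4, 51.1% for mt-Co1, 8.19% for mt-Nd2 and 7.61% for mt-Nd5, and it was 0% for mt-Nd1, mt-Nd6 and mt-Cytb. The nuclear copies lie side by side on the minus strand of chromosome 1, between the start of Gm28439 at 24611535 and the end of Gm29216 at 24616197, and on the minus strand of chromosome 2 in Gm13340 and Gm13341 (GRCm38). The fragments of the genes with high shares are therefore uncertain. The first 90 bases of mt-Co2 (plus strand, MT:7013-7102) are shown with both nuclear copies, because mt-Co2 is the most completely copied gene of the 10. Capitals in the mt-Co2 line mark bases that differ in a copy, and capitals in a copy mark its differences. All sequences are from GENCODE M21 transcripts on GRCm38, written 5′ to 3′, with positions counted from 1 at the 5′ end of the mitochondrial gene.
mt-Co2: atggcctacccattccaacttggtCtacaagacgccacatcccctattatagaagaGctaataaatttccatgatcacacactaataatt
Gm28661: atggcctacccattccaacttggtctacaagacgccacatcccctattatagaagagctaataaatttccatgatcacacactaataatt
Gm13341: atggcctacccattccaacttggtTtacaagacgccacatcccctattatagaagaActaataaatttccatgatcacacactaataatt

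Gm28661 had 0 differences from mt-Co2 in these bases and 0 over all 681 compared bases, whereas Gm13341 carried C25T and G57A in the window. The copy of mt-Atp6 (Gm10925) had 0 differences over 678 bases and the copy of mt-Co3 (Gm28437) had 0 over 783 bases. No base in these stretches separates the mitochondrial gene from its copy on chromosome 1.

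The abundant genes differed in how much of them was found in annotated copies. The copy of mt-Co1 on chromosome 1 (Gm29216) starts at position 1054, and it differed from the gene at 6 of 492 bases. All 6 lie close to its 5′ end, as the window of positions 1054 to 1143 (plus strand, MT:6381-6470) shows beside the copy on chromosome 2, with the same use of capitals.
mt-Co1: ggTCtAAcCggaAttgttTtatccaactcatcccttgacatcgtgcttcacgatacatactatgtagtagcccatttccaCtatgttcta
Gm29216: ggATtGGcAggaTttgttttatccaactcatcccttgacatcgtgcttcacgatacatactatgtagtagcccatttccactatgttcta
Gm13340: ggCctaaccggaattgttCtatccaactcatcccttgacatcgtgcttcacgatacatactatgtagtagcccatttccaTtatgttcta

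Gm29216 carried T1056A, C1057T, A1059G, A1060G, C1062A and A1066T, and Gm13340 carried T1056C, T1072C and C1134T in this window. Gm13340 covers the whole of mt-Co1 and differed from it at 37 of 1545 bases.

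For mt-Nd4, the copy Gm28439 had 0 differences over 876 bases and then ends. The window of positions 832 to 921 (plus strand, MT:10998-11087) shows that border, with the bases after the end of the copy in capitals.
mt-Nd4: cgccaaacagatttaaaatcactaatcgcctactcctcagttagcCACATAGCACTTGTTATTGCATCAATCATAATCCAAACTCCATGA

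mt-Nd6 is the one gene of the 10 on the light strand, and its 3′ end overlaps that of mt-Nd5 on the heavy strand by 14 bases. The last 60 bases of both genes (mt-Nd5, plus strand, MT:13506-13565, and mt-Nd6, minus strand, MT:13552-13611) are shown because the comparison of the strands turns on these genes. Capitals mark the shared bases, which are the reverse complement of each other.
mt-Nd5: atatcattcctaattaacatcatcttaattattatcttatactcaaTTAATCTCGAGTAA
mt-Nd6: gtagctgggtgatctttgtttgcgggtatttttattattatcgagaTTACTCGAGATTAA

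The library protocol describes no step that marks the strand, so fragments from mt-Nd6 and from antisense RNA of the heavy-strand precursor cannot be told apart. This concerns the whole of mt-Nd6, since the precursor of the other strand runs through it.

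Levels are given as FPKM, which scale the fragments of a gene by its length and by the depth of the library. The depth by which FPKM were scaled was 1.45 and 1.34 times the fragments on genes in Control and 0.909 to 0.998 times in the other libraries, so FPKM are lower in Control, relative to its fragments, than in Model and MUS. Where this changes the order of groups for a gene, fragments are given too. They can be set side by side, because total fragments on genes differed little, from 15526321 to 17135442 per library. The 10 genes fell into a set of 7 with a mean FPKM over the 6 libraries between 271 (mt-Nd4) and 1439 (mt-Co1), and a set of 3 between 5.32 (mt-Atp6) and 8.07 (mt-Co2). These sets are called abundant and scarce below. The scarce set consisted of the 3 genes with at least 99.5% of their stretches in a nuclear copy. The other 3 protein genes were lower still, with mean FPKM of 2.38 for mt-Nd3, 1.56 for mt-Nd4l and 0.286 for mt-Atp8. Of these, mt-Nd3 and mt-Nd4l had 97.99% and 98.8% of their stretches in an annotated nuclear transcript, and mt-Atp8 had 0%. mt-Atp8 starts between mt-Co2 and mt-Atp6. On chromosome 1, the copies of these 2 genes leave a gap between the end of Gm10925 at 24614651 and the start of Gm28661 at 24614885. Sequence outside annotated transcripts was not searched, so whether mt-Atp8 was copied too is not known. The part of the nuclear copies in these levels was not tested. GC content ranged from 34.1% (mt-Nd6) to 39.9% (mt-Co1) in the 10 genes, and it did not separate the sets, since mt-Atp6 (36.0%), mt-Co2 (38.6%) and mt-Co3 (38.9%) lay within the range of the abundant genes.

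**Figure D1:**
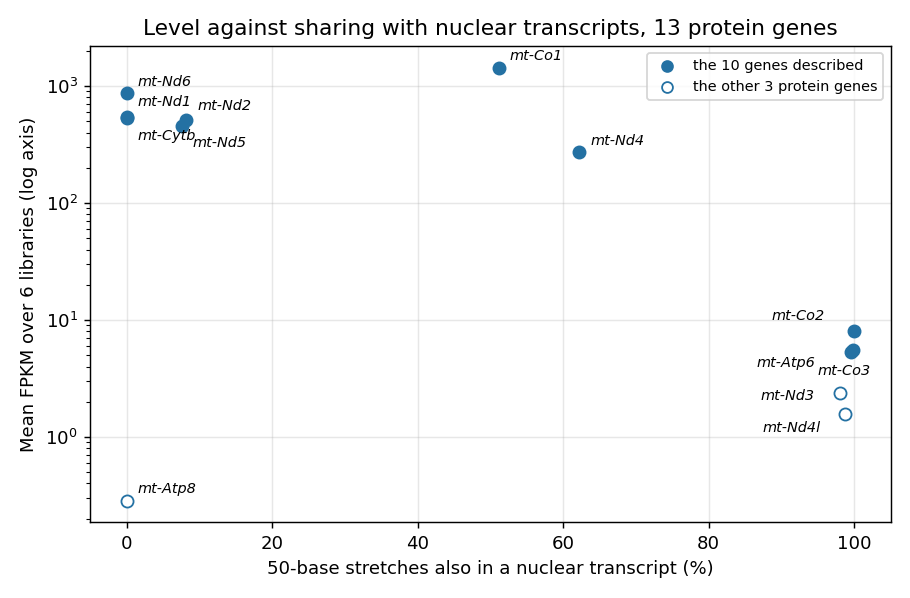
Mean FPKM over 6 libraries (log axis) against the percentage of 50-base stretches that also occur in an annotated nuclear transcript, for the 13 protein genes of the mitochondrial genome (filled points, the 10 genes described; open points, the other 3). The 5 genes at 97.99% or more have a mean of at most 8.07 FPKM, and mt-Atp8, at 0%, has the lowest mean of 0.286 FPKM. Copies outside annotated transcripts were not searched.

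Complex I was represented by 5 genes, which encode core membrane subunits that move protons. mt-Nd1 (ENSMUSG00000064341, MT 2751 to 3707) had 1208 and 1077 FPKM in Control replicates 1 and 2, 346 and 339 FPKM in Model, and 98.1 and 176 FPKM in MUS. The libraries of the 3 groups did not overlap, and the level was lower at each step from Control to Model to MUS. mt-Nd2 (ENSMUSG00000064345, MT 3914 to 4951) had 801 and 1042 FPKM in Control, 458 and 468 FPKM in Model, and 83.5 and 195 FPKM in MUS. mt-Nd4 (ENSMUSG00000064363, MT 10167 to 11544) had 621 and 585 FPKM in Control, 135 and 188 FPKM in Model, and 30.8 and 62.5 FPKM in MUS. Both genes had the order seen for mt-Nd1, with no overlap between groups. mt-Nd4 was the lowest of the abundant genes in every library except Model replicate 1, where mt-Nd5 was lower.

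mt-Nd5 (ENSMUSG00000064367, MT 11742 to 13565) had 712 and 1014 FPKM in Control, 123 and 517 FPKM in Model, and 134 and 242 FPKM in MUS. Its Model libraries lay on both sides of the MUS libraries, so Model and MUS overlapped for this gene. mt-Nd6 (ENSMUSG00000064368, MT 13552 to 14070, minus strand) had 1063 and 1668 FPKM in Control, 1217 and 948 FPKM in Model, and 87.5 and 255 FPKM in MUS. The Control and Model libraries of mt-Nd6 overlapped in FPKM but not in fragments, with 12615 and 19809 fragments for Control and 8913 and 7622 fragments for Model, and both MUS libraries were below all 4 others.

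mt-Cytb (ENSMUSG00000064370, MT 14145 to 15288) encodes cytochrome b, the only subunit of complex III made in mitochondria. It had 1255 and 1027 FPKM in Control, 287 and 316 FPKM in Model, and 126 and 161 FPKM in MUS. Its groups did not overlap, in the same order as for mt-Nd1, mt-Nd2 and mt-Nd4.

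Complex IV was represented by its 3 catalytic core subunits. mt-Co1 (ENSMUSG00000064351, MT 5328 to 6872) encodes the subunit where oxygen is reduced, and it had 2510 and 2056 FPKM in Control, 888 and 1231 FPKM in Model, and 816 and 1131 FPKM in MUS. Control lay above the other groups, and the Model and MUS libraries overlapped. mt-Co1 was the highest of the 10 genes in every library except Model replicate 1, where mt-Nd6 was higher.

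mt-Co2 (ENSMUSG00000064354, MT 7013 to 7696) encodes the subunit that takes electrons from cytochrome c. It had 16.9 and 15.8 FPKM in Control, 7.67 and 4.72 FPKM in Model, and 1.26 and 2.07 FPKM in MUS, and the groups did not overlap. These values rest on 264 and 248 fragments for Control, 74 and 50 fragments for Model and 13 and 23 fragments for MUS. The exact 95% Poisson interval was 58.1 to 92.9 fragments in Model replicate 1 and 6.92 to 22.2 in MUS replicate 1. Such intervals cover counting error only.

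mt-Co3 (ENSMUSG00000064358, MT 8607 to 9390) encodes the third core subunit of complex IV. It had 6.86 and 6.97 FPKM in Control, 7.41 and 2.47 FPKM in Model, and 5.57 and 4.08 FPKM in MUS. In FPKM, the Model libraries lay on both sides of all 4 other libraries, which ranged from 4.08 to 6.97 FPKM. In fragments, both Model libraries (82 and 30) and both MUS libraries (66 and 52) lay below both Control libraries (123 and 125), and only Model and MUS overlapped.

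mt-Atp6 (ENSMUSG00000064357, MT 7927 to 8607) encodes the subunit of complex V that forms the proton channel beside the rotor. It had 8.93 and 11.0 FPKM in Control, 4.47 and 5.31 FPKM in Model, and 0.680 and 1.54 FPKM in MUS. Its groups did not overlap, although the MUS values rest on 7 and 17 fragments, with exact 95% Poisson intervals of 2.81 to 14.4 and 9.90 to 27.2 fragments.

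**Figure D2:**
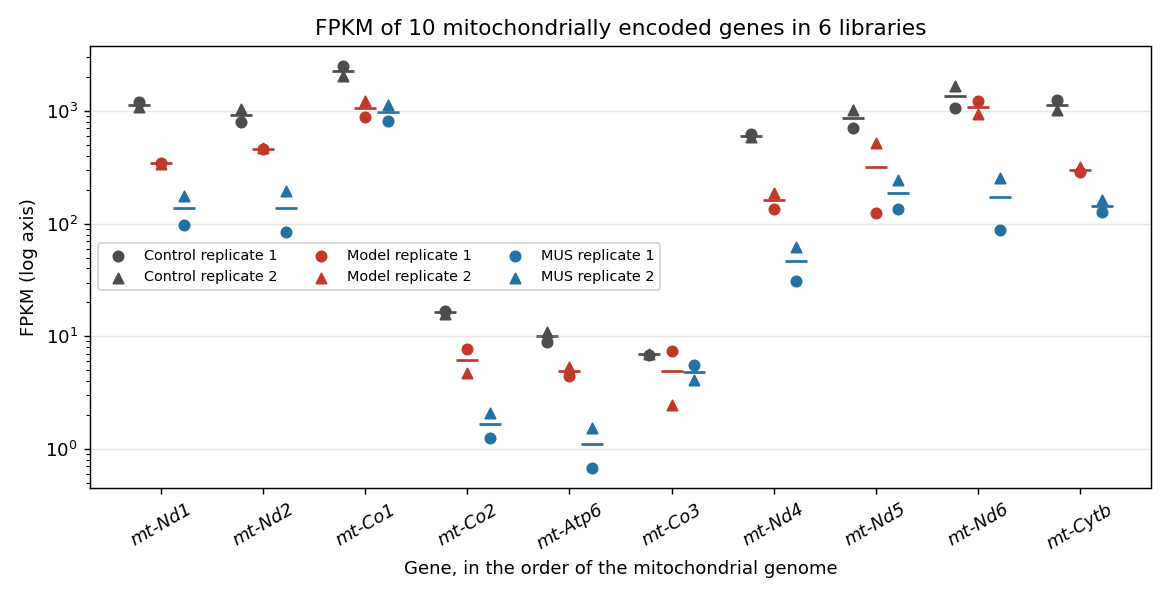
FPKM (log axis) of the 10 genes, in the order of the mitochondrial genome, in each library (circles, replicate 1; triangles, replicate 2; dashes, group means of 2 libraries). The 7 abundant genes lie between 30.8 and 2510 FPKM and the 3 scarce genes between 0.680 and 16.9 FPKM; both MUS points lie below both Control points for each of the 10 genes.

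In Control, mean FPKM ran from mt-Co1 (2283 ± 321 FPKM, SD, n = 2) through mt-Nd6 (1366 ± 428 FPKM), mt-Nd1 (1143 ± 92.5 FPKM), mt-Cytb (1141 ± 161 FPKM), mt-Nd2 (922 ± 170 FPKM), mt-Nd5 (863 ± 213 FPKM) and mt-Nd4 (603 ± 25.4 FPKM) to mt-Co2, mt-Atp6 and mt-Co3. The neighbours from mt-Nd6 to mt-Nd5 in that order overlapped, so only mt-Co1, mt-Nd4 and the scarce genes were separated from their neighbours. In Model, mt-Nd6 (1082 ± 190 FPKM) and mt-Co1 (1060 ± 243 FPKM) stood together at the top and overlapped, followed by mt-Nd2 (463 ± 6.93 FPKM). In MUS, mt-Co1 (973 ± 222 FPKM) stood alone, and the next gene, mt-Nd5, had 188 ± 76.2 FPKM. The 5 genes from mt-Nd5 to mt-Nd1 in MUS overlapped with their neighbours, and mt-Nd4 (46.6 ± 22.4 FPKM) was below them.

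To ask how LPS and ATP, and then muscone, related to these transcripts, a linear model was fitted to log2(FPKM + 1) of 9794 genes with a mean of at least 1 FPKM, and all 10 genes passed this filter. A fold change on this scale understates the change of low genes. A DEG was a gene with an adjusted p of at most 0.05 (limma, two-sided, Benjamini-Hochberg) and an absolute log2 fold change above 1. For Model vs. Control, the log2 fold change was -1.91 ± 0.344 (SE) for mt-Cytb, -1.91 ± 0.417 for mt-Nd4, -1.74 ± 0.687 for mt-Nd5 and -1.73 ± 0.393 for mt-Nd1. It was -1.30 ± 0.278 for mt-Co2, -1.12 ± 0.406 for mt-Co1, -0.98 ± 0.467 for mt-Nd2 and -0.89 ± 0.262 for mt-Atp6. The values closest to 0 were those of mt-Co3 (-0.55 ± 0.403) and mt-Nd6 (-0.31 ± 0.564), whose Control and Model libraries overlapped in FPKM. With libraries rescaled to their total fragments, mt-Co3 was at -1.04 and mt-Nd6 at -0.86, and the median of all genes was then at -0.40. The median over the 10 genes was -1.21, and over all 9794 genes it was 0.04. Of the 10 genes, 4 met the DEG criteria, namely mt-Nd1, mt-Nd4, mt-Cytb and mt-Co2, and 15.1% of all genes did. Both Model libraries were below both Control libraries for 8 of the 10 genes, and for 28.5% of all genes. After rescaling to total fragments it was all 10 genes, including mt-Nd6 and mt-Co3, and 53% of all genes, an alternative chosen after seeing the data. As the genes were chosen with this contrast known, nothing is read from these counts.

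The count of 4 depended on the scaling. Whole fragments per gene could be recovered from FPKM and gene length, and libraries were rescaled to their total (fragment-total scaling) or to the total without the mitochondrial genes and the 20 highest genes (nuclear-fragment scaling), or the fragments were fitted with voom, limma's method for counts. The number of the 10 genes that were DEGs was 7 after fragment-total scaling or quantile normalization, and 8 after nuclear-fragment scaling or with voom on recovered fragments. It was 2 with only the 2 groups compared, and 0 with no filter on low genes. The number over all genes moved too. It was 1475 of 9794 in the main fit, 2200 with fragment-total scaling, 1422 with quantile normalization, 2734 with voom and 797 with only the 2 groups. It was 2468 of 10542 with nuclear-fragment scaling and 260 of 30192 with no filter. Leaving out a library could move both numbers as well. Over all genes, 930 DEGs were higher and 545 lower, whereas 646 were higher and 1822 lower after nuclear-fragment scaling. The median of all genes then moved from 0.04 to -0.45, and the median of the 10 genes to -1.77.

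For MUS vs. Model, the log2 fold change was -2.84 ± 0.564 for mt-Nd6, -1.85 ± 0.467 for mt-Nd2, -1.84 ± 0.417 for mt-Nd4, -1.51 ± 0.262 for mt-Atp6 and -1.42 ± 0.278 for mt-Co2. It was -1.38 ± 0.393 for mt-Nd1 and -1.07 ± 0.344 for mt-Cytb. The other 3 genes were within 1 SE of 0, with -0.49 ± 0.687 for mt-Nd5, -0.12 ± 0.406 for mt-Co1 and 0.10 ± 0.403 for mt-Co3. The median over the 10 genes was -1.40, and over all genes it was 0.01. None of the 10 genes met the DEG criteria, and 0% of all genes did in limma, with 825 genes at an unadjusted p below 0.05 and a smallest adjusted p of 0.139. voom on recovered fragments also gave 0 DEGs, and the fit with the replicate number as a block gave 4, none of them among the 10 genes. Both MUS libraries were below both Model libraries for 7 of the 10 genes, and for 21% of all genes, both by FPKM and after rescaling to total fragments. The 3 exceptions were mt-Nd5, mt-Co1 and mt-Co3.

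For MUS vs. Control, the log2 fold change ranged from -3.75 ± 0.417 for mt-Nd4 to -0.45 ± 0.403 for mt-Co3, with a median of -2.78, against 0.04 over all genes. mt-Nd6 was at -3.15 ± 0.564, mt-Nd1 at -3.11 ± 0.393, mt-Cytb at -2.98 ± 0.344, mt-Nd2 at -2.83 ± 0.467 and mt-Co2 at -2.72 ± 0.278. mt-Atp6 followed at -2.40 ± 0.262, mt-Nd5 at -2.23 ± 0.687 and mt-Co1 at -1.24 ± 0.406. The DEG criteria were met by 7 of the 10 genes, all except mt-Nd5, mt-Co1 and mt-Co3, and by 20.2% of all genes. The count was 9, with mt-Nd5 and mt-Co1 added, under each of the other scalings, the GC correction, voom, a filter at a mean of 5 FPKM, no trend and a fit of only the 2 groups. A replicate block gave 8 genes, adding mt-Nd5, and the count was 5 with no filter. Without MUS replicate 1 the count was lower, as was the number over all genes. The number over all genes was 1980 of 9794 in the main fit, 2691 with fragment-total scaling, 1987 with quantile normalization and 3144 with voom. It was 1976 with no trend, 2030 with only the 2 groups and 2125 with the replicate block. With other numbers of genes tested it was 3016 of 10542 (nuclear-fragment scaling), 1582 of 9785 (GC correction), 1347 of 5262 (filter at 5 FPKM) and 456 of 30192 (no filter). Over all genes, 1107 DEGs were higher and 873 lower, and 749 were higher and 2267 lower after nuclear-fragment scaling. Both MUS libraries were below both Control libraries for all 10 genes, and for 33.8% of all genes (57.2% after rescaling to total fragments). The 3 comparisons share libraries, so their values for one gene are not independent.

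**Figure D3:**
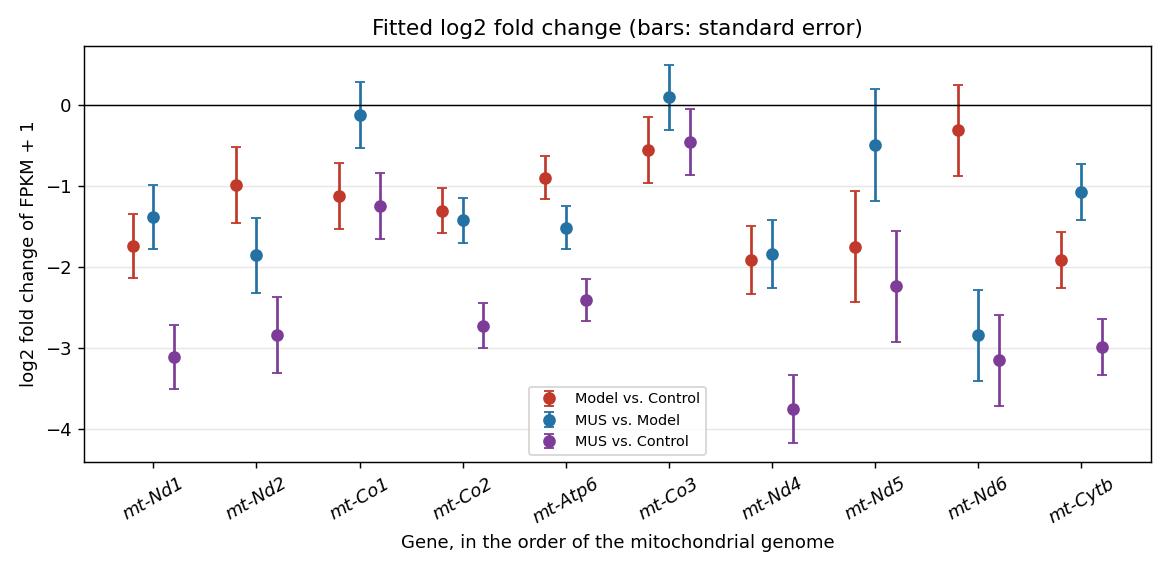
Fitted log2 fold change of FPKM + 1 for each of the 10 genes in Model vs. Control, MUS vs. Model and MUS vs. Control (points; bars, standard error; 2 libraries per group). mt-Nd6 lies at -0.31 and then -2.84 in the first 2 comparisons, whereas mt-Co1 lies at -1.12 and then -0.12.

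Within batches, the direction was the same for most genes. In batch 1, 8 of the 10 genes were lower in Model than in Control, the exceptions being mt-Nd6 with a log2 difference of 0.19 and mt-Co3 with 0.10, and in batch 2 all 10 were lower. After rescaling to total fragments, these exceptions turned to -0.48 for mt-Nd6 and -0.50 for mt-Co3, so that all 10 were lower in both batches. In batch 2, the rescaled values were -1.23 for mt-Nd6 and -1.57 for mt-Co3. The same rescaling put the median of all genes, fitted over both batches, at -0.40, and no median of all genes was taken within a batch. For MUS vs. Model, 9 of the 10 were lower in each batch, the exceptions being mt-Nd5 in batch 1 (0.12, against -1.09 in batch 2) and mt-Co3 in batch 2 (0.55, against -0.36 in batch 1). All 10 were lower in MUS than in Control in both batches, with a median log2 difference of -3.12 in batch 1 and -2.44 in batch 2.

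The light-strand gene mt-Nd6 was compared with the 9 heavy-strand genes inside each library, where a common scale cancels. The difference between mt-Nd6 and the median of the 9 heavy-strand genes in log2(FPKM + 1) was 0.58 and 0.72 in the Control libraries, 3.16 and 1.58 in the Model libraries and 0.07 and 0.66 in the MUS libraries. Both Model libraries were above the 4 others, and Control and MUS overlapped. Because 3 of the 9 genes are scarce, the median fell on one of the lower abundant genes, and not on the same gene in every library. It was mt-Nd5 in both Control libraries, mt-Nd4 in Model replicate 1, mt-Nd2 in MUS replicate 1, and mt-Cytb in Model replicate 2 and MUS replicate 2. A change of this difference between groups therefore includes a change of the gene compared. The mean of this difference moved by 1.72 from Control to Model and by -2.01 from Model to MUS, with a pooled SD of 0.690 between libraries of a group. Model replicate 1 set much of the size. Without it the first value was 0.93 and the second -1.22, and without Model replicate 2 they were 2.51 and -2.80. Against mt-Nd5 alone, whose 3′ end mt-Nd6 overlaps, the difference was 0.58 and 0.72 in the Control libraries, 3.29 and 0.87 in the Model libraries and -0.61 and 0.07 in the MUS libraries. The Control values repeat those above, because mt-Nd5 was the median gene there. Against mt-Cytb, it was -0.24 and 0.70 in the Control libraries, 2.08 and 1.58 in the Model libraries and -0.53 and 0.66 in the MUS libraries, so the Model libraries were the highest against either partner. Against mt-Co1, Control and Model overlapped. Model replicate 2 had 948 FPKM of mt-Nd6 and 1231 FPKM of mt-Co1, and Control replicate 2 had 1668 and 2056 FPKM.

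The next gene on the light strand, the tRNA gene mt-Te, was looked at after its values were seen. It had 17 and 22 fragments for Control, 2 and 5 fragments for Model and 0 fragments for both MUS libraries. Another tRNA gene of the light strand, mt-Tp, had 29 and 31 fragments for Control, 29 and 31 fragments for Model and 9 and 21 fragments for MUS. For Control, Model and MUS in turn, mt-Tn had 16 and 7, 0 and 0, and 8 and 7 fragments. mt-Tc had 20 and 7, 4 and 4, and 0 and 0, and mt-Ty had 10 and 9, 0 and 4, and 1 and 2. In fragments, the Model libraries were below the Control libraries for mt-Nd6, mt-Te, mt-Tn, mt-Tc and mt-Ty and equal to them for mt-Tp. From Model to MUS the tRNA genes went different ways. mt-Tn was higher in MUS (log2 fold change 2.95, limma adjusted p = 0.139), mt-Ty overlapped, and mt-Te, mt-Tc and mt-Tp were lower. Of the 22 mitochondrial tRNA genes, 9 had 0 fragments in every library.

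Among the complexes, the median of the 5 complex I genes on the log2 scale was -1.73 for Model vs. Control, -1.84 for MUS vs. Model and -3.11 for MUS vs. Control. mt-Cytb of complex III was close to them at -1.91, -1.07 and -2.98. The 3 complex IV genes had medians of -1.12, -0.12 and -1.24, each being the value of mt-Co1, but they did not move as a unit, since mt-Co2 reached -1.42 in MUS vs. Model and mt-Co3 was at 0.10. mt-Atp6 of complex V was at -0.89, -1.51 and -2.40, and only in the MUS comparisons was it nearer to mt-Co2 than to mt-Co1 and mt-Co3. By abundance, the 7 abundant genes had medians of -1.73, -1.38 and -2.98, and the 3 scarce genes had -0.89, -1.42 and -2.40. Leaving out the scarce genes therefore changed the median of the 10 genes from -1.21 to -1.73 in Model vs. Control and from -1.40 to -1.38 in MUS vs. Model. This alternative was chosen after seeing the data.

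mt-Co1 was set against each of the other abundant heavy-strand genes inside the libraries. The difference between mt-Co1 and mt-Nd1 in log2(FPKM + 1) was 1.05 and 0.93 in the Control libraries, 1.36 and 1.86 in the Model libraries and 3.04 and 2.68 in the MUS libraries. Against mt-Cytb it was 1.00 and 1.00 in the Control libraries, 1.63 and 1.96 in the Model libraries and 2.68 and 2.80 in the MUS libraries. The groups did not overlap in either measure. The pooled SD was 0.257 for mt-Nd1 and 0.143 for mt-Cytb, against a step from Model to MUS of 1.25 and 0.95. The groups did not overlap against mt-Nd4 either, with 2.01 and 1.81 in the Control libraries, 2.70 in both Model libraries and 4.68 and 4.16 in the MUS libraries. Against mt-Nd2, Control (1.65 and 0.98) and Model (0.95 and 1.39) overlapped, and both MUS libraries (3.27 and 2.53) were above them. mt-Nd5 did not follow, since against it the Model libraries (2.84 and 1.25) lay on both sides of the MUS libraries (2.60 and 2.22). Against the median of mt-Nd1, mt-Nd2, mt-Nd4 and mt-Nd5, the difference was 1.73 and 1.00 in the Control libraries, 2.03 and 1.63 in the Model libraries and 3.16 and 2.61 in the MUS libraries, where Control and Model overlapped and MUS was above both. mt-Cytb against the same 4 genes showed no such step, with 0.73 and -0.001 in the Control libraries, 0.40 and -0.33 in the Model libraries and 0.48 and -0.20 in the MUS libraries.

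**Figure D4:**
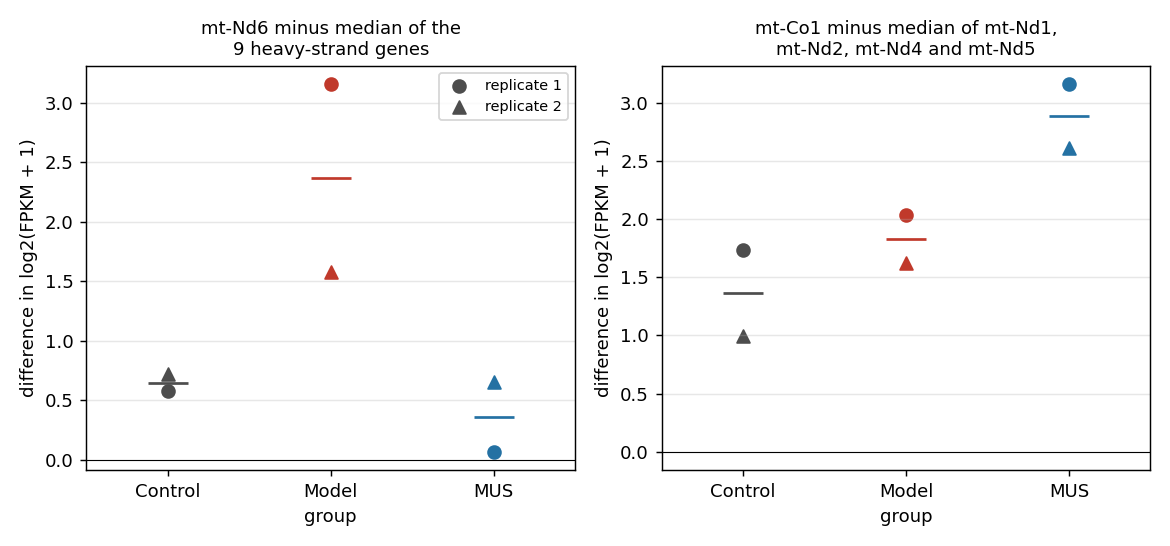
Difference in log2(FPKM + 1) inside each library (circles, replicate 1; triangles, replicate 2; dashes, group means of 2 libraries) between mt-Nd6 and the median of the 9 heavy-strand genes (left), and between mt-Co1 and the median of mt-Nd1, mt-Nd2, mt-Nd4 and mt-Nd5 (right). The left panel peaks in Model, at 3.16 and 1.58, and the right panel is highest in MUS, at 3.16 and 2.61. In the left panel, the gene at the median differs between libraries.

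The same shift appears in the make-up of the fragments, which unlike FPKM also depend on gene length. mt-Co1 took 38.7% and 31.7% of the fragments of the 10 genes in the Control libraries, 38.5% and 39.8% in the Model libraries and 65.5% and 58.9% in the MUS libraries. mt-Nd6 took 5.5% and 8.65% in the Control libraries, 17.7% and 10.3% in the Model libraries and 2.36% and 4.46% in the MUS libraries. The share of mt-Nd4 was 8.54% and 8.06% in the Control libraries, 5.24% and 5.43% in the Model libraries and 2.21% and 2.90% in the MUS libraries. mt-Nd5 took 12.95% and 18.5% in the Control libraries, 6.32% and 19.8% in the Model libraries and 12.7% and 14.9% in the MUS libraries, with Model replicate 1 the lowest of the 6 libraries. The 3 scarce genes each took at most 0.227% in any library.

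**Figure D5:**
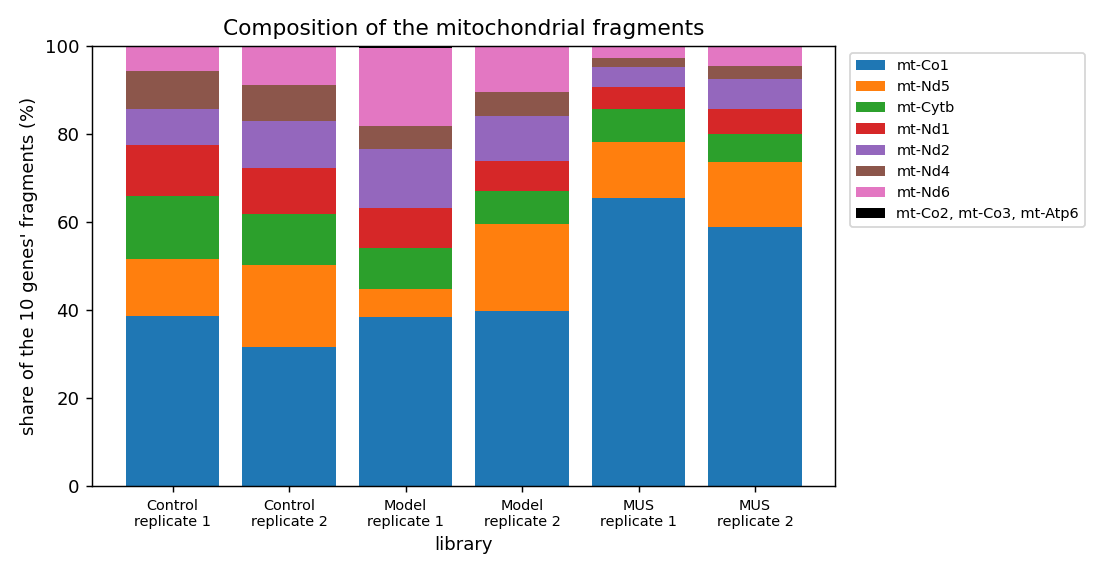
Share (%) of the fragments of the 10 genes that each gene took, per library; each bar adds up to 100%, and the 3 scarce genes are drawn together. The share of mt-Co1 lies between 31.7% and 39.8% in the Control and Model libraries, and at 65.5% and 58.9% in MUS.

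Together the 10 genes took 1.46% and 1.34% of all fragments on genes in the Control libraries, 0.324% and 0.477% in the Model libraries and 0.179% and 0.292% in the MUS libraries. The groups did not overlap. In bulk samples such as these, fewer cells of a type and less RNA per cell cannot be told apart. The mitochondrial rRNA genes, which lie upstream on the heavy strand, differed less between groups than most of the 10 genes. mt-Rnr2 had 168 and 210 FPKM in Control, 154 and 98.9 FPKM in Model, and 150 and 114 FPKM in MUS. mt-Rnr1 had 89.8 and 74.8 FPKM in Control, 67.9 and 39.7 FPKM in Model, and 47.0 and 42.1 FPKM in MUS. By FPKM, neither passed the test in any comparison, with log2 fold changes in MUS vs. Control of -0.52 for mt-Rnr2 (limma adjusted p = 0.329) and -0.87 for mt-Rnr1 (limma adjusted p = 0.105). In fragments, mt-Rnr2 had 6082 and 7608 for Control, 3438 and 2425 for Model and 3598 and 2934 for MUS. mt-Rnr1 had 1961 and 1635, 915 and 588, and 678 and 653 fragments in the same order. For both genes, all Model and MUS libraries were below both Control libraries, in FPKM and in fragments. Over all genes, both Model libraries were below both Control libraries for 28.5% by FPKM, and both MUS libraries for 33.8%. After rescaling to total fragments, these shares were 53% and 57.2%. Of the protein genes outside the 10, mt-Nd4l was a DEG for Model vs. Control, at -1.38 ± 0.322 with a limma adjusted p of 0.0300, and for MUS vs. Control, at -1.52 ± 0.322 with a limma adjusted p of 0.0174. mt-Nd3 was in neither (limma adjusted p = 0.732 and 0.197). The values of mt-Nd4l rest on 24 and 22 fragments for Control, 1 and 6 for Model and 2 and 3 for MUS. Its copy on chromosome 1 (Gm10222) had 0 differences over 294 bases, so these fragments may come from either location. mt-Atp8 was not tested, with 1 and 7 fragments in Control and 0 in the 4 other libraries, where 3 fragments would have given 0.905 to 1.04 FPKM.

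By FPKM, the nuclear genes of the same complexes did not follow this order. Their values were not rescaled to total fragments. That rescaling moved the median of all genes to -0.40 in Model vs. Control and to -0.39 in MUS vs. Control. Of 80 listed subunits, 78 were tested. Their log2 fold changes had medians of 0.23 for Model vs. Control, -0.09 for MUS vs. Model and 0.07 for MUS vs. Control. Summed over the listed genes, Model replicate 1 was the highest library for each of complexes I to V. For complex I it reached 789 FPKM, while Model replicate 2, at 395 FPKM, was the lowest library. Model replicate 2 was also lowest for complexes II and IV, and for III and V it lay between the Control libraries. How far Model replicate 1 set the medians and calls that involve Model was not tested. In Model vs. Control, 0 passed the test upwards and 1 downwards, which was Atpif1, the inhibitor of ATP synthase (-1.33 ± 0.348, limma adjusted p = 0.0411). In MUS vs. Model, 0 passed in limma, and the values ranged from -1.52 to 0.77. In MUS vs. Control, 3 rose and 8 fell. The share of nuclear subunits called was thus 1.28% in Model vs. Control and 14.1% in MUS vs. Control, beside 15.1% and 20.2% of all genes.

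By complex, 1 of 36 complex I subunits rose in MUS vs. Control, namely Ndufb9 (1.48 ± 0.397, limma adjusted p = 0.0367), and 3 fell, among them Ndufa12 (-1.75 ± 0.270, adjusted p = 0.00643) and Ndufb11 (-1.25 ± 0.372, adjusted p = 0.0490). Of 9 complex III subunits, 1 fell, which was Uqcr11 (-1.48 ± 0.424, limma adjusted p = 0.0447), and of 4 complex II and 12 complex IV subunits none passed. Complex II has no mitochondrially encoded subunit. Of 17 complex V genes, 2 rose and 4 fell, the latter led by Atpif1 (-2.27 ± 0.348, limma adjusted p = 0.00638), Atp5k (-2.03 ± 0.430, adjusted p = 0.0173) and Atp5g2 (-1.96 ± 0.400, adjusted p = 0.0153). The difference between mitochondrial and nuclear genes was not tested as a set.

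The nuclear genes whose pattern over the 6 libraries was nearest to the mean of the 10 genes were found by the root mean square difference of centred log2(FPKM + 1) among 5247 genes. They were Slc48a1, a heme transporter (0.199), Fxyd5, a regulator of the sodium pump (0.244), Slc8b1, the mitochondrial sodium/calcium exchanger (0.246), Stk11ip (0.279) and Dok2, an adaptor of tyrosine kinase signalling (0.297). Slc48a1 had 69.1 and 105.9 FPKM in Control, 28.8 and 28.9 FPKM in Model, and 9.86 and 18.2 FPKM in MUS. By the same measure the 10 genes themselves lay between 0.164 (mt-Atp6) and 0.983 (mt-Co3) from their mean, with mt-Nd6 at 0.729, mt-Nd5 at 0.656 and mt-Co1 at 0.583.

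The nuclear copies had their own rows. Gm28661, the copy of mt-Co2, had 9.38 and 7.19 FPKM in Control, 6.35 and 2.37 FPKM in Model, and 0.583 and 2.62 FPKM in MUS. Unlike for mt-Co2 itself, its Model and MUS libraries overlapped. Gm10925, the copy of mt-Atp6, had 11.9 and 17.5 FPKM in Control, 7.84 and 10.6 FPKM in Model, and 3.61 and 3.995 FPKM in MUS, which was above mt-Atp6 itself in every library. Gm28437, the copy of mt-Co3, had 6.59 and 6.08 FPKM in Control, 5.25 and 3.87 FPKM in Model, and 4.73 and 4.87 FPKM in MUS, close to mt-Co3. Gm29216, the copy of mt-Co1, had between 5.78 and 12.5 FPKM, and Gm28439, the copy of mt-Nd4, between 0.529 and 5.09 FPKM, far below their abundant originals. Since the copied bases are nearly the same, a fragment in these rows may come from either location.

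Model replicate 1 stood apart, with 24906 genes above 0 against 17406 to 19200 in the others. It gave the lowest mt-Nd5 and the largest excess of mt-Nd6. Its mt-Co3 was the highest in FPKM but not in fragments, with 82 against 123 and 125 for Control. Copies of ribosomal RNA and repeats summed to 542 and 735 FPKM in Control, 2647 and 614 FPKM in Model, and 20.98 and 69.2 FPKM in MUS, and all 7 that were tested had a negative log2 fold change for MUS vs. Model, none with a call. Their part in the values of the 10 genes, and that of Model replicate 1, was not tested beyond leaving that library out. Macrophage markers summed to between 10092 and 15151 FPKM, with all 10 above 0. Summed markers of some other cell types moved with the groups, but on few genes. In the mast cell and T cell lists, only 1 gene each had a mean of at least 1 FPKM. These were Hdc and Lck, with log2 fold changes in Model vs. Control of 3.50 and 1.47. In the neutrophil list there were 2, S100a8 and Csf3r, at 1.90 and 1.19. The neutrophil list summed to 46.6 and 49.1 FPKM in Control and to 115 to 156 FPKM in Model and MUS, the mast cell list to 0.603 and 0.174 FPKM and to 9.47 to 12.6 FPKM, and the T cell list to 0.660 and 0.321 FPKM and to 1.499 to 3.43 FPKM. Lists for B cells (3.93 to 6.17 FPKM), eosinophils (3.11 to 6.43 FPKM) and mesothelial cells (0.705 to 1.41 FPKM) overlapped between groups. The part of such cells in the values of the 10 genes was not tested. The defining neutrophil genes S100a9, Elane, Ly6g and Retnlg, the eosinophil genes Prg2, Ear1, Ear6 and Epx and the mast cell gene Fcer1a were at 0 in all libraries.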

How the data were processed

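mRNA was captured with poly-T beads and primed with random hexamers. The authors deposited FPKM, 1 column per library, which the paper's methods ascribe to RSEM. The submitters' processing notes name HISAT2, featureCounts 1.5.0-p3 and GRCm39, with no role for each, while 98.3% of the gene positions shared with GENCODE M21, and those of all 10 genes, are those of GRCm38. The authors called DEGs with DESeq2. Groups came from the labelled treatment. The 10 genes, the gene lists and the comparisons were chosen with earlier results of these data known.

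FPKM are no counts, so limma 3.58.1 (R 4.3.3, mean-variance trend) was fitted to log2(FPKM + 1) of genes with a mean of at least 1 FPKM, 3 groups in one model. FPKM times gene length came out as whole multiples of one step for 100% of values, within 0.1 of a step, which gave the fragments on genes. Genes named were the 10, the other mitochondrial protein and rRNA genes, the 5 nearest in pattern at a mean of at least 5 FPKM, nuclear copies with at least 10% of a gene's stretches, and called nuclear subunits (all where a list had 3 or fewer, otherwise the 3 with the largest change). The fit was tested on simulated data. Replicate numbers pair the samples because the labels give them as batches; deviations of same-numbered libraries correlated at 0.119 (Control and Model), 0.136 (Model and MUS) and -0.0928 (Control and MUS). Alternatives were another pseudocount, other filters, no trend, 2 groups only, a replicate block, other scalings, a GC correction, voom on recovered fragments and leaving out each library. No column was left without a sample.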

Additional observations from a re-analysis of the deposited data

How the results depend on the processing

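Of the 30 log2 fold changes of the 10 genes (3 comparisons), 25 kept their direction under all 17 alternatives. In Model vs. Control, mt-Nd6 turned to 0.01 without Control replicate 2 and mt-Co3 to 0.09 without Model replicate 2. In MUS vs. Model, mt-Nd5 turned to 0.54 without Model replicate 2, mt-Co1 turned with quantile normalization and without Model replicate 2 or MUS replicate 1, and mt-Co3 turned with the GC correction and without the same libraries. The cause was not tested. The median of the 10 genes in Model vs. Control was -1.79 with quantile normalization, -1.74 with fragment-total scaling, -1.77 with nuclear-fragment scaling and -1.82 with voom, while the last 3 moved the median of all genes to -0.40, -0.45 and -0.50. In MUS vs. Control it was -3.36 with nuclear-fragment scaling and -3.60 with voom (all genes, -0.45 and -0.48).

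DEGs in Model vs. Control numbered 1475, against 260 with no filter, 797 with only 2 groups, 2468 with nuclear-fragment scaling and 2734 with voom. In MUS vs. Control they numbered 1980, against 456, 3016 and 3144 with no filter, nuclear-fragment scaling and voom. In MUS vs. Model the count of 0 became 1 with a pseudocount of 0.1, 7 with only 2 groups and 4 with the replicate block. Leaving out 1 library at a time gave 692 (without Model replicate 1) to 2077 (without Control replicate 2) DEGs in Model vs. Control, 0 to 31 (without Model replicate 2) in MUS vs. Model and 184 (without MUS replicate 1) to 2398 (without Control replicate 2) in MUS vs. Control. Where a group was left with 1 library, that library was assumed to vary like the others. The difference between mt-Nd6 and the heavy-strand median ranged from 0.93 to 2.51 for Model vs. Control and from -2.80 to -1.22 for MUS vs. Model, both ends without a Model library. Of the 10 genes, the replicate block added mt-Nd5 to the calls in MUS vs. Control and changed no other.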
